A study of Mus musculus with 2 samples.

Results

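The barcodes described here were macrophages of mouse back skin that carried both complement C1q and the mannose receptor Mrc1 (CD206). They were chosen by their own measured counts: among barcodes with at least 500 detected genes and under 20% mitochondrial UMIs (unique molecular identifiers, each counting 1 captured transcript), those with 3 or more UMIs of C1qa, C1qb and C1qc together, at least 1 of Mrc1, and 2 or more of Tyrobp and Fcer1g together. The rule found 106 barcodes among 7248 kept ones and 8364 deposited ones: 72 in the WT library and 34 in the Card14KI library. The study compared full-thickness back skin of 1 wild-type and 1 Card14KI mouse, the latter labelled Card14 KI +/+, both C57BL/6 and 12 months old. The title of the study names IL-17 and IL-36 signalling in a Card14-mutant model of pityriasis rubra pilaris, an inflammatory skin disease, and the change inserted into Card14 was not analysed here. Both skins were enzymatically digested for 73 min, cleared of dead cells and run on the 10x Genomics 3' platform. With 1 mouse per genotype there is no replicate check: every difference below is between these 2 libraries, genotype and animal cannot be told apart, and each interval (95%) covers counting error only.

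Skin macrophages clear debris, apoptotic cells and immune complexes. C1q is the recognition part of the classical complement pathway and Mrc1 is an endocytic lectin. A subset beside blood vessels carries the hyaluronan receptor Lyve1 and the folate receptor Folr2, whereas macrophages renewed from blood monocytes tend to carry the chemokine receptor Ccr2 and much MHC class II, which displays peptides to T cells. Retnla is a secreted protein of type 2 (alternative) activation, and Cxcl13 is a chemokine that attracts B cells through Cxcr5.

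The members held 426327 UMIs in WT and 191618 in Card14KI, with medians of 4670.5 and 5348.5 UMIs and of 1814 and 1792 genes per barcode. Their median mitochondrial share was 2.71% and 1.55%. All 12 macrophage markers outside the rule, among them Csf1r, Adgre1 and Mertk, were detected in both libraries. The skin was not split into layers, so nothing in the data places these cells in the dermis, and they are called C1q Mrc1 macrophages here. Cd207, which defines Langerhans cells, was at 0 in Card14KI, and the T cell receptor genes Trac and Trbc2 and the neutrophil genes S100a9 and Ly6g were at 0 in both libraries. Summed marker levels of other cells were 851 CPM in WT and 600 in Card14KI for 7 monocyte genes, 455 and 240 for 7 neutrophil genes, 75.1 and 157 for 9 dendritic cell genes, and 82.1 and 41.7 for 6 Langerhans cell genes. They were 113 and 20.9 for 8 T and innate lymphoid genes, 14.1 and 47.0 for 6 mast cell and basophil genes, 232 and 240 for 8 keratinocyte genes, and 46.9 and 26.1 for 6 endothelial genes. For 6 mural and muscle genes they were 103 and 41.7, for 5 sebocyte genes 124 and 115, for 5 red cell genes 39.9 and 146, and for 7 melanocyte and Schwann cell genes 2.35 and 5.22 CPM. Dendritic cell Xcr1 and Clec9a were at 0 in both libraries. Mmp9 alone gave 187 of the 194 WT and 38 of the 46 Card14KI UMIs of the neutrophil genes. Cd209a gave 24 of the 32 WT and 28 of the 30 Card14KI UMIs of the dendritic cell genes. These sums are thus mostly 1 gene each, both described below among the genes of the members. Whether other cells gave these UMIs was not tested. The part of UMIs from other cells in the results below was not tested. Xist was read in both libraries and the Y-linked Ddx3y in neither. The 2 libraries shared 2 barcodes, neither of them a member.

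5 members carried many UMIs of another cell type. Fibroblast genes took over 1% of the UMIs in 3 WT members (at most 6.24%) and in 1 Card14KI member (2.40%). Another Card14KI member had 22.6% of its 10152 UMIs in B and plasma cell genes, with 1201 of Igkc, 698 of Ighm and 391 of Jchain. It also held 37 Cxcl13 UMIs, 1 of C1qa and none of Retnla. B and plasma cell markers summed to 195 CPM in WT members and 12248 CPM in Card14KI members. Values without these 5 are given for the genes and lists where they are named.

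Members made up 1.66% of kept barcodes in WT (1.30 to 2.09) and 1.17% in Card14KI (0.810 to 1.63). The difference was -0.494 points (Newcombe interval -1.03 to 0.0777), so it was not detectable at this number of barcodes. Among barcodes with 2 or more Tyrobp or Fcer1g UMIs, members were 72 of 425 and 34 of 230. In dissociated tissue, fewer cells of a type and poorer recovery of them cannot be told apart. At the margin of the rule, 12 WT and 4 Card14KI members had a single Mrc1 UMI or at most 4 C1q UMIs, with 411 CPM of Mrc1 in each library (CPM: a gene's UMIs per 1000000 UMIs summed over the barcodes). Just outside it, 15 and 5 barcodes had enough C1q but no Mrc1, 7 and 1 had Mrc1 with only 1 or 2 C1q UMIs, and 4 and 0 had both with too few Tyrobp and Fcer1g UMIs.

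Since the rule used them, C1q and Mrc1 are given as a description. C1qa stood at 3228 CPM in WT against 4478 CPM in Card14KI. Mrc1, the endocytic receptor, stood at 1037 and 1827 CPM. Tyrobp, a signalling adaptor, stood at 1053 and 1106 CPM, and Fcer1g, another signalling adaptor, at 2097 and 2301 CPM. The genes most enriched over all other kept barcodes in both libraries were the ficolin Fcna, Folr2, the lectins Cd209f and Cd209g, C1qa, C1qc, the chemokine Pf4, C1qb and Retnla, followed by Ms4a7, F13a1, Oasl1, C3ar1, Fxyd2, Clec10a, Cfp, C5ar1, Mrc1, Fcrls and Adgre1. Fcna, which binds bacterial sugars, was at 600 CPM in WT members and 1284 CPM in Card14KI members, but at 0.0937 and 0.25 CPM outside them. Cd209f was at 751 and 1712 CPM against 0.262 and 0.0749. Cd209 family members are similar in sequence, so their counts can be split between copies.

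Retnla and Cxcl13, proposed as markers beside C1qa and Mrc1, were each carried by only some members, and they differed between the libraries in opposite directions. Retnla had a UMI in 40 of 72 WT members and in 27 of 34 Card14KI members. Cxcl13 had one in 36 of 72 and in 8 of 34. In GENCODE annotation of GRCm38, Retnla lies on the plus strand at chr16:48842551-48844461 and Cxcl13 on the plus strand at chr5:95956951-95961068. The upstream sequences of both genes are printed because these 2 genes carry the opposite differences. The 2 annotations differ in their starts, and the GENCODE start of Retnla lies inside its printed run. The bases after that start are upstream of the RefSeq start only. Each run is the 250 bases before the RefSeq start in GRCm38.p6, on the plus strand: Retnla at chr16:48842359-48842608 and Cxcl13 at chr5:95956689-95956938.
Retnla: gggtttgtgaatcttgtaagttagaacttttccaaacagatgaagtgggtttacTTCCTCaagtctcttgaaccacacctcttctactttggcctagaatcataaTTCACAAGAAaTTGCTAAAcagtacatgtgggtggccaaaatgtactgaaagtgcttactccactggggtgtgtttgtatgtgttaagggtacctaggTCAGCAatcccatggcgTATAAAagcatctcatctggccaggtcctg
Cxcl13: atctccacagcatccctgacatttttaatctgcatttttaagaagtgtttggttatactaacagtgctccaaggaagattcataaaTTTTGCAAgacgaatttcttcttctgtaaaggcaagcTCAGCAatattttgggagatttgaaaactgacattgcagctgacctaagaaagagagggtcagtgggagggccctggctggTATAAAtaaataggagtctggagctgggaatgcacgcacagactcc
Capitals mark matches to 5 motifs searched on both strands, none overlapping another in these runs. A TATA box (TATAAA) begins 30 bases before the RefSeq start of Retnla and 46 before that of Cxcl13. The one of Retnla lies past its GENCODE start. Of 32851 promoter windows of this length, 12.4% hold a TATA box. A C/EBP core (TTGCNNAA, 9.56% of windows) and a MAF half-site (TGCTGA, 16.1%) occur in both. A STAT6-type palindrome (TTC and GAA separated by 4 bases of any kind, 5.85%) and a PU.1 core (GAGGAA, 23.3%) occur in the Retnla window and not in the Cxcl13 window. A match of letters is a description of the window and not evidence of binding.

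Retnla stood at 4954 CPM in WT members (2112 UMIs) and 17138 CPM in Card14KI members (3284 UMIs), 3.46-fold higher (3.27 to 3.66). Per 10000 UMIs of a barcode it ranged from 0 over a median of 7.50 to 500.4 in WT and from 0 over 179 to 781 in Card14KI, so the ranges overlapped. Thinned to 2000 UMIs per barcode, which left out 7 WT and 3 Card14KI members, 50.8% of 65 WT and 77.4% of 31 Card14KI members had a Retnla UMI, a difference of 26.7 points (5.78 to 42.9). In barcodes gated as fibroblasts, which should lack Retnla, the unthinned share was 0.705% and 0.662% at median depths of 7337.5 and 5677 UMIs.

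Cxcl13 went the other way, at 2278 CPM in WT members (971 UMIs) and 256 CPM in Card14KI members (49 UMIs), 8.91-fold lower (6.68 to 12.1). Of the 49 Card14KI UMIs, 37 lay in the barcode rich in plasma cell genes. Without the 5 members that carried UMIs of other cell types, 942 WT and 12 Card14KI UMIs were left, 2521 and 71.7 CPM. Thinned, 49.2% of WT and 22.6% of Card14KI members had a Cxcl13 UMI, a difference of -26.7 points (-42.9 to -5.78). In fibroblast-gated barcodes Cxcl13 was higher in Card14KI, at 144 CPM in WT against 544 CPM in Card14KI, 3.79-fold (3.61 to 3.97). Cxcl13 was thus lower in macrophages and higher in fibroblasts of the same Card14KI skin, a difference between cell types that was not tested.

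The members were not uniform, and the classes within them bear on every comparison of the libraries. Members were split by whether a Lyve1 or Folr2 UMI remained after thinning to 2000 UMIs. In WT, 33 of 65 had one (50.8%, 38.1 to 63.4), and in Card14KI 23 of 31 (74.2%, 55.4 to 88.1), a difference of 23.4 points (2.39 to 40.4). Unthinned, the difference was 19.5 points and its interval reached just below 0 (-0.165 to 35.5). Ccr2 was read in 21 of 65 members of WT and in 6 of 31 members of Card14KI, and together with Lyve1 or Folr2 in 2 and 1. Lyve1 or Folr2 and Ccr2 therefore marked nearly separate sets of barcodes in both libraries.

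**Figure D1:**
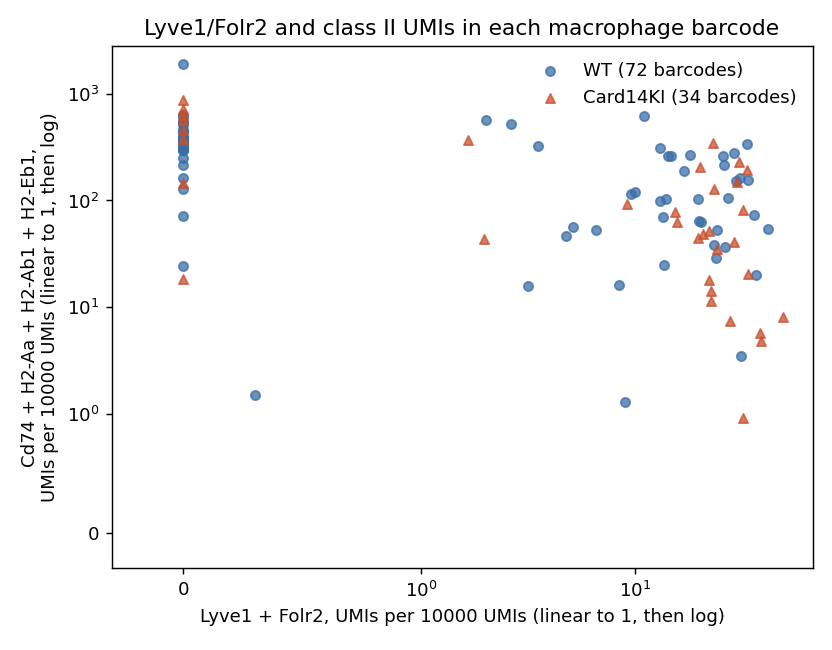
Each point is 1 C1q Mrc1 macrophage barcode of WT (72, circles) or Card14KI (34, triangles); the x axis gives Lyve1 and Folr2 UMIs and the y axis the UMIs of Cd74 and 3 class II genes, both per 10000 UMIs of the barcode. The barcodes at 0 on the x axis sit mostly above 100 on the y axis, and those above 10 on the x axis spread from about 1 upward.

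The 2 classes of WT differed by the genes that follow, which the split on measured Lyve1 and Folr2 UMIs makes a description. Between them 396 of 3050 genes were at least 2-fold higher with such a UMI (13%) and 338 without (11.1%). Of 16 chemokines 10 were higher with it and 2 without, and of 11 inflammatory genes 3 and 4. H2-Ab1, a class II chain, was at 5459 CPM in them and 2207 CPM in those with such a UMI. Ccr2 was at 731 and 133 CPM, and Il1b, the inflammatory cytokine IL-1 beta, at 618 CPM (159 UMIs) and 0 UMIs. The macrophage elastase Mmp12 had 271 UMIs in the former, 139 of them in 1 barcode, and 0 in the latter, and the integrin Itgax 35 and 0. The former also held nearly all UMIs of Cx3cr1, a fractalkine receptor (33 and 0), and of the matrix protein Thbs1 (169 and 4). Retnla and Cxcl13 lay in the members with a Lyve1 or Folr2 UMI, with 1935 of 2053 Retnla UMIs and 929 of 952 Cxcl13 UMIs of both classes.

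In Card14KI, where 24.7% of 1325 genes were at least 2-fold higher with a Lyve1 or Folr2 UMI and 8.15% without, class II was again higher without it, with H2-Ab1 at 9346 CPM in the 8 members without a Lyve1 or Folr2 UMI and 588 CPM in the 23 with one. Ccr2 was at 658 CPM in the former and at 1 UMI in the latter. Mmp12 had 6 UMIs, and Itgax, Cx3cr1 and Thbs1 had none in either class. Retnla lay mostly in the members with a Lyve1 or Folr2 UMI (2828 UMIs), and 220 of the 278 UMIs in the other class were in 1 barcode.

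Comparing the libraries within the members that had a Lyve1 or Folr2 UMI narrowed the Retnla difference and widened that of Cxcl13. Barcodes of this class had a median of 4024 UMIs in WT and 6527 in Card14KI. Counts of its barcodes with a UMI are not thinned, here and below. Retnla stood at 12238 CPM in WT against 19118 CPM in Card14KI there, 1.56-fold higher (1.47 to 1.66), and had a UMI in 29 of 33 and 22 of 23. Its median was 85.9 UMIs per 10000 UMIs of the barcode in WT and 188 in Card14KI, with overlapping ranges. Cxcl13 stood at 5875 and 324 CPM, 18.1-fold lower (13.5 to 24.7), with a UMI in 29 of 33 WT and 7 of 23 Card14KI barcodes. Without the members carrying other cell types' UMIs, 913 UMIs in WT and 11 in Card14KI were left. In WT most of these macrophages carried both genes, and in Card14KI most carried Retnla alone.

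**Figure D2:**
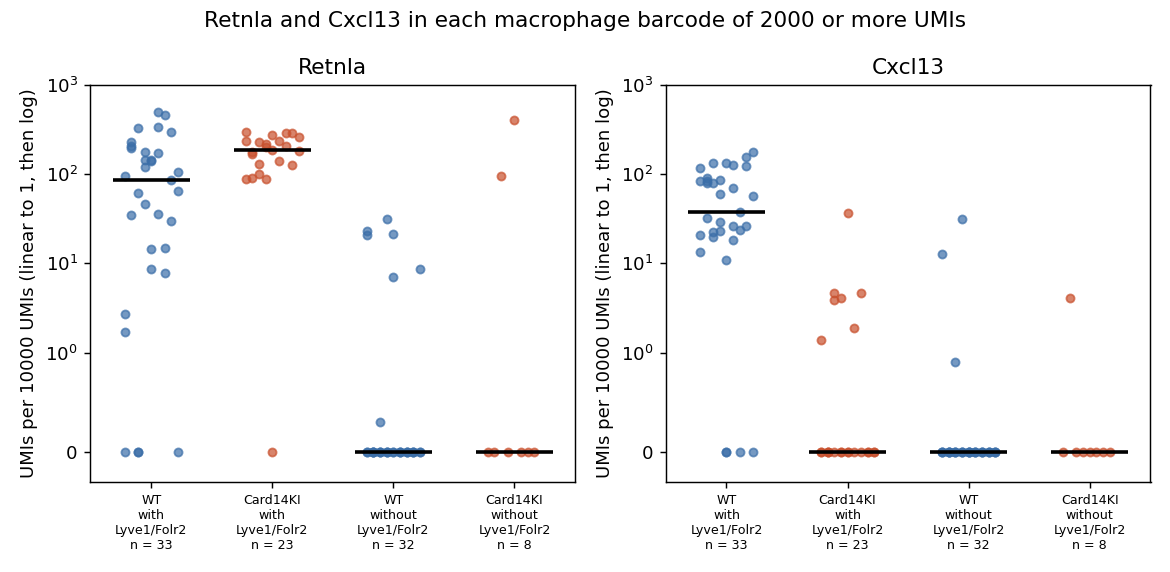
Each point is 1 C1q Mrc1 macrophage barcode with at least 2000 UMIs, split by library and by a Lyve1 or Folr2 UMI; the y axis gives UMIs of Retnla (left) and Cxcl13 (right) per 10000, and bars are medians. Of the barcodes with a Lyve1 or Folr2 UMI, 29 of 33 in WT and 7 of 23 in Card14KI had Cxcl13.

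Across all genes, 4128 had 20 or more UMIs over the members of both libraries. On the scale used for every log2 ratio here, log2 of (CPM + 10) in Card14KI over that in WT, 169 genes were at least 2-fold higher in Card14KI (4.09% of those compared) and 374 at least 2-fold lower (9.06%), and the median was -0.12. Within the members with a Lyve1 or Folr2 UMI, 2315 genes could be compared, 105 at least 2-fold higher (4.54%) and 161 lower (6.95%), with a median of -0.090. Such a ratio understates the difference of genes with low counts. Without the 5 members carrying UMIs of other cell types, 178 of 3631 genes were higher (4.9%) and 340 lower (9.36%). The gene groups below were drawn up with earlier results of these data known and are described by counts and medians beside these shares.

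Genes of resident, perivascular-type macrophages were higher in Card14KI over all members and close to even within the Lyve1 and Folr2 class. All 20 were compared, 11 were past 2-fold higher and none lower, with a median log2 ratio of 1.06. Folr2 stood at 495 CPM in WT against 1446 CPM in Card14KI, and Cd163, the receptor for haemoglobin bound to haptoglobin, at 117 and 527 CPM. The eosinophil chemokine Ccl24 stood at 108 and 386 CPM, and Wfdc17 at 762 and 2322 CPM. Within the class, 2 of the 20 were past 2-fold and the median was 0.088. Lyve1 and Folr2, 2 of the 20, define the class, so their levels there are set by the split. Fcna was at 1543 and 1602 CPM there, Cd209f at 1961 and 2109 CPM, and Selenop, a secreted selenium carrier, at 4142 and 4225 CPM. For Fcna, Cd209f and Selenop the libraries differed less within the class than over all members, whereas the summed level of Cd163 was 2.06-fold higher (1.42 to 3.04) within the class too. Cd163 had a UMI in 19 of 33 WT and 12 of 23 Card14KI barcodes of the class, however. Its median there was 2.03 UMIs per 10000 in WT and 2.04 in Card14KI. The median count was 1 UMI per barcode in each library, too few to show whether the typical barcode differed. Over all members, the thinned shares with a Cd163 UMI differed by 12.4 points (-6.04 to 32.0).

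Among scavenger and phagocytic receptors, 9 of the 27 compared were past 2-fold higher and 2 lower, with a median of 0.52, and within the class 4 of 22 higher and none lower, with a median of 0.20. Cd209b, a lectin that binds microbial sugars, stood at 98.5 CPM in WT against 418 CPM in Card14KI, and Siglec1, the sialic acid receptor CD169, at 23.5 and 93.9 CPM. Axl, a receptor for apoptotic cells, was lower at 122 and 47.0 CPM, and so was the lectin Clec4n, with 23 and 4 UMIs. The type 2 list had 4 of 11 genes higher and 2 lower (median 0.49): Retnla, Ccl24, Clec10a and Cd209a were higher, while the ribonuclease Ear2 (181 and 47.0 CPM) and fibronectin Fn1 (626 and 172 CPM) were lower. Within the class 5 type 2 genes could be compared and none was past 2-fold. Mgl2, a lectin induced by IL-4, stood at 729 and 887 CPM over all members and at 1050 and 608 CPM within the class.

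The complement genes compared numbered 12, with 2 higher, 2 lower and a median of 0.24, and within the class none of 11 was higher, 2 were lower and the median was -0.23. Without the members carrying UMIs of other cell types, 3 of 10 in the class were higher, 2 lower and the median was 0.13. The sign of the class median thus depended on those members. C4b, the cleavage target of the C1 complex, stood at 298 CPM in WT against 1085 CPM in Card14KI, and within the class at 677 and 1284 CPM. Thinned, 35.4% of WT and 61.3% of Card14KI members had a C4b UMI. In fibroblast-gated barcodes the thinned share was higher in Card14KI too, at 51.2% and 62.6%. C6, part of the membrane attack complex, stood at 56.3 and 183 CPM. Itgax, a chain of complement receptor CR4, had 38 and 0 UMIs. After thinning, 5 of 65 and 0 of 31 members had an Itgax UMI, and the interval of the difference spanned 0 (-16.8 to 4.16 points). Cd55, which dissolves C3 convertases, was lower at 296 and 110 CPM, and further apart within the class at 702 and 115 CPM (6.11-fold lower, 3.65 to 10.9). C3, the central component, stood at 305 and 157 CPM, with 19 of its 30 Card14KI UMIs in 1 barcode, and without the 5 members carrying UMIs of other cell types it had 118 and 11 UMIs. Within the class it stood at 721 and 203 CPM. In fibroblast-gated barcodes C3 was higher in Card14KI, at 976 and 2288 CPM.

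**Figure D3:**
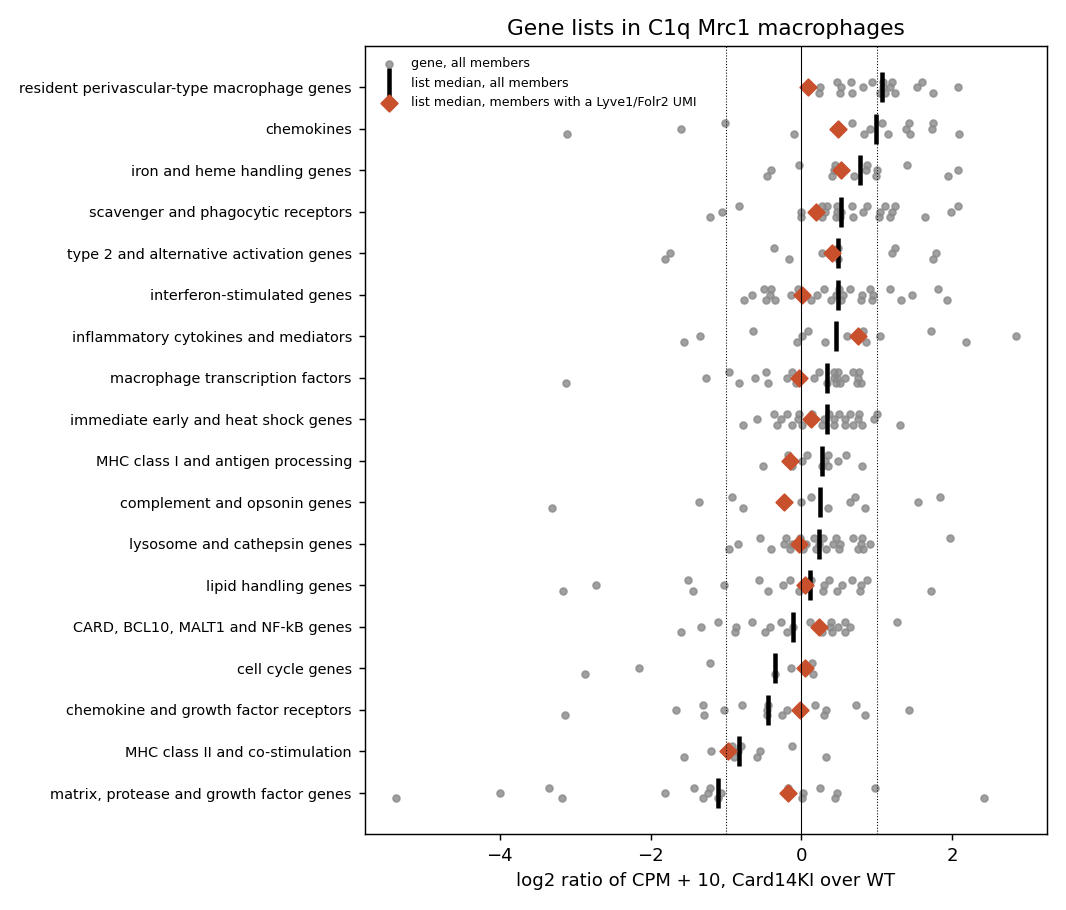
Each grey point is 1 gene of a list over all C1q Mrc1 macrophages, on the x axis as the log2 ratio of CPM + 10 (Card14KI over WT); black bars are list medians over all members and diamonds the medians within members that had a Lyve1 or Folr2 UMI. The median of the resident list is 1.06 over all members and 0.088 within the class, and that of the class II list is below 0 in both.

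Chemokines were among the most widely shifted groups. Of 16 compared, 8 were past 2-fold higher, 3 lower, and the median was 0.98. Ccl4, which attracts monocytes and lymphocytes, stood at 565 CPM in WT against 2432 CPM in Card14KI, and within the Lyve1 and Folr2 class at 487 and 2914 CPM, 5.98-fold higher (4.69 to 7.73). It had a UMI in 9 of 33 WT and 16 of 23 Card14KI barcodes of the class, not thinned, at median depths of 4024 and 6527 UMIs. Cxcl2, which recruits neutrophils, stood at 2538 and 8444 CPM over all members and at 2523 and 9694 CPM within the class, where 18 of 33 and 21 of 23 barcodes had a UMI. Ccl4 and Cxcl2 were therefore higher in Card14KI within the class as well as over all members. The monocyte chemokines Ccl2 (1013 and 2771 CPM) and Ccl7 (1128 and 2954 CPM) were higher over all members, and at 1670 and 3319 CPM and at 2536 and 3563 CPM within the class. Ccl8 was at 2294 and 4801 CPM over all members but at 5142 and 5739 CPM within the class. Ccl12 (178 and 83.5 CPM) and the scavenger chemokine Cxcl16 (195 and 57.4 CPM) were lower. Within the class 3 of 15 chemokines were past 2-fold higher and 2 lower, with a median of 0.49.

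Cytokines and growth factors gave 4 genes higher and 2 lower of 14, with a median of 0.46, and within the class 4 of 10 higher and none lower, with a median of 0.75. Il10, an anti-inflammatory cytokine, had 20 UMIs in 8 WT members and 76 UMIs in 8 Card14KI members, or 46.9 and 397 CPM. All 76 lay in barcodes with a Lyve1 or Folr2 UMI, the largest count in 1 barcode being 23, and the level there was 8.12-fold higher (4.18 to 17.6). After thinning, 4 of 65 and 6 of 31 members had an Il10 UMI, which differ by 13.2 points whose interval reached just below 0 (-0.134 to 30.5). Hbegf, an epidermal growth factor receptor ligand, stood at 63.3 and 324 CPM, and Il6 at 61.0 and 224 CPM. Il1b was lower, at 373 and 120 CPM, and none of its 159 WT UMIs lay in the Lyve1 and Folr2 class. Its largest counts in single WT barcodes were 42, 40 and 31. After thinning, 16 of 65 and 3 of 31 members had an Il1b UMI, a difference of -14.9 points (-28.2 to 2.67). For Il6 the thinned shares differed by 13.2 points (-0.134 to 30.5), so both intervals spanned 0. In fibroblast-gated barcodes the thinned share with an Il6 UMI was higher in Card14KI too, at 14.1% in WT and 25.9% in Card14KI. Gdf15, a stress-induced factor counted with the matrix and growth factor list, stood at 103 and 595 CPM over all members and at 139 and 669 CPM within the class.

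Class II antigen presentation was lower in Card14KI. Of 10 genes compared, 2 were past 2-fold lower and none higher, with a median of -0.82, and 9 of 10 had a ratio below 0. The 2 were H2-DMb1, which helps to load peptides (158 and 30 UMIs), and Ciita, the master activator of class II genes (28 and 3 UMIs). H2-Aa stood at 5909 CPM in WT against 3126 CPM in Card14KI, H2-Eb1 at 5017 and 2792 CPM, and H2-Ab1 at 4297 and 2458 CPM. The invariant chain Cd74 stood at 9830 and 6523 CPM. Within the Lyve1 and Folr2 class 4 of 8 genes were past 2-fold lower (median -0.97): H2-Ab1 stood at 2207 and 588 CPM, 3.75-fold lower (2.96 to 4.80). In the members without such a UMI the list median was 0.33, beside -0.21 for all genes compared there. With both classes given the same weight in both libraries, the list median was -0.054, with H2-Ab1 at 0.37 and Cd74 at 0.22 on the log2 scale in place of -0.80 and -0.59. The lower class II level over all members thus depended on how the classes were weighted, while within the Lyve1 and Folr2 class it was lower. Class I genes had no member past 2-fold among 13, and a median of 0.28.

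Of 17 chemokine and growth factor receptors, 5 were past 2-fold lower over all members and 1 higher, with a median of -0.44, and 6 had a ratio above 0. Ccr2 stood at 500 CPM in WT against 151 CPM in Card14KI, 3.30-fold lower (2.23 to 5.05). After thinning, 21 of 65 and 6 of 31 members had a Ccr2 UMI, and the interval of the difference spanned 0 (-28.7 to 6.76 points). Of the members without a Lyve1 or Folr2 UMI, 26 of 32 in WT and 6 of 8 in Card14KI had a Ccr2 UMI before thinning. Cx3cr1 had 33 UMIs in 9 WT members and 0 in Card14KI, at least 4.94-fold lower when the group at 0 is set to a floor of 3 UMIs over its members. All 33 lay in the 32 WT members without a Lyve1 or Folr2 UMI, a class with only 8 members in Card14KI. After thinning, 3 of 65 and 0 of 31 members had a Cx3cr1 UMI, and the interval of the difference spanned 0 (-12.7 to 6.82 points). Cxcr4 stood at 272 and 104 CPM and Csf2ra, a receptor chain for GM-CSF, at 155 and 57.4 CPM. Ccr1 was higher at 101 and 287 CPM. Within the class 2 of 13 were higher, 1 lower and the median was -0.017.

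The matrix and protease list had 11 of 19 genes past 2-fold lower, 1 higher and a median of -1.11, and within the class 2 of 11 lower and a median of -0.18. Thbs1 had 173 UMIs in 11 WT members, 78 of them in 1 barcode, and 0 in Card14KI, and 147 and 0 without the 5 members carrying UMIs of other cell types. After thinning, 8 of 65 and 0 of 31 members had a Thbs1 UMI, and the interval of the difference reached just above 0 (-22.5 to 0.215 points). Mmp12 stood at 650 CPM and 31.3 CPM, and a single barcode held 139 of the 277 UMIs of WT. Thinned, 8 of 65 and 2 of 31 members had a Mmp12 UMI, and the interval of the difference spanned 0 (-17.0 to 9.60 points). Sparc (602 and 25 UMIs) and Timp1 (54 and 1 UMIs) are also made by fibroblasts, and without the 5 members carrying UMIs of other cell types they had 7 and 2 and 6 and 0 UMIs. Fibroblast markers summed to 4755 CPM in WT members and 1962 CPM in Card14KI members, all 7 of the list detected in both. Their part in the other matrix genes was not tested. Mmp9, a gelatinase, stood at 439 and 198 CPM and, within the class, at 1094 and 237 CPM, with a UMI in 31 of 33 WT and 13 of 23 Card14KI barcodes.

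Of 22 lipid genes 1 was past 2-fold higher and 5 lower, with a median of 0.11, while within the class 3 of 18 were higher, 1 lower and the median 0.043. Apoe, the lipid carrier, stood at 5170 CPM in WT against 16966 CPM in Card14KI, and within the class at 6204 and 20443 CPM, 3.30-fold higher (3.06 to 3.55). Its median was 60.6 and 177 UMIs per 10000 in barcodes of the class, and every one of those barcodes had a UMI. Lpl, lipoprotein lipase, was lower at 608 and 83.5 CPM over all members, but stood at 69.6 and 67.6 CPM within the class. Thinned, 11 of 65 and 3 of 31 members had an Lpl UMI, and the interval of the difference spanned 0 (-19.8 to 9.59 points). The fatty acid carrier Fabp4 had 34 UMIs in 5 WT members, 29 of them in 1, and 0 in Card14KI, at least 5.09-fold lower. Apoe is also abundant outside macrophages, at 1049 and 1322 CPM in fibroblast-gated barcodes.

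Iron and heme genes had 4 of 14 past 2-fold higher and none lower, with a median of 0.78, and 2 of 10 within the class, with a median of 0.52. Hmox1, which degrades heme, stood at 715 CPM in WT against 2766 CPM in Card14KI, and within the class at 1252 and 3265 CPM, 2.61-fold higher (2.21 to 3.09). The ferritin chains Ftl1 (5428 and 8809 CPM) and Fth1 (8533 and 11346 CPM) lay below the 2-fold line. Outside the list, metallothionein Mt1, which binds zinc and copper, stood at 856 and 3481 CPM over all members and at 1296 and 4022 CPM within the class. Cp, the copper protein ceruloplasmin that oxidises iron, stood at 53.9 and 245 CPM. Hmox1 and Mt1 were also higher in fibroblast-gated barcodes, at 182 and 427 CPM and at 916 and 2221 CPM.

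Interferon-stimulated genes had 5 of 28 past 2-fold higher and none lower, with a median of 0.48, and 3 of 19 higher, 2 lower and a median of 0.012 within the class. Without the 5 members carrying UMIs of other cell types, 8 of 26 were higher and 1 lower over all members. Ifi27l2a stood at 1203 CPM in WT against 4624 CPM in Card14KI, and within the class at 2093 and 5523 CPM. In fibroblast-gated barcodes it stood at 430 and 2203 CPM, and there the list had a median of 0.74, beside -0.077 for all genes compared in fibroblasts. Isg15 stood at 103 and 303 CPM in members, and Zbp1, a nucleic acid sensor, at 21.1 and 99.2 CPM.

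**Figure D4:**
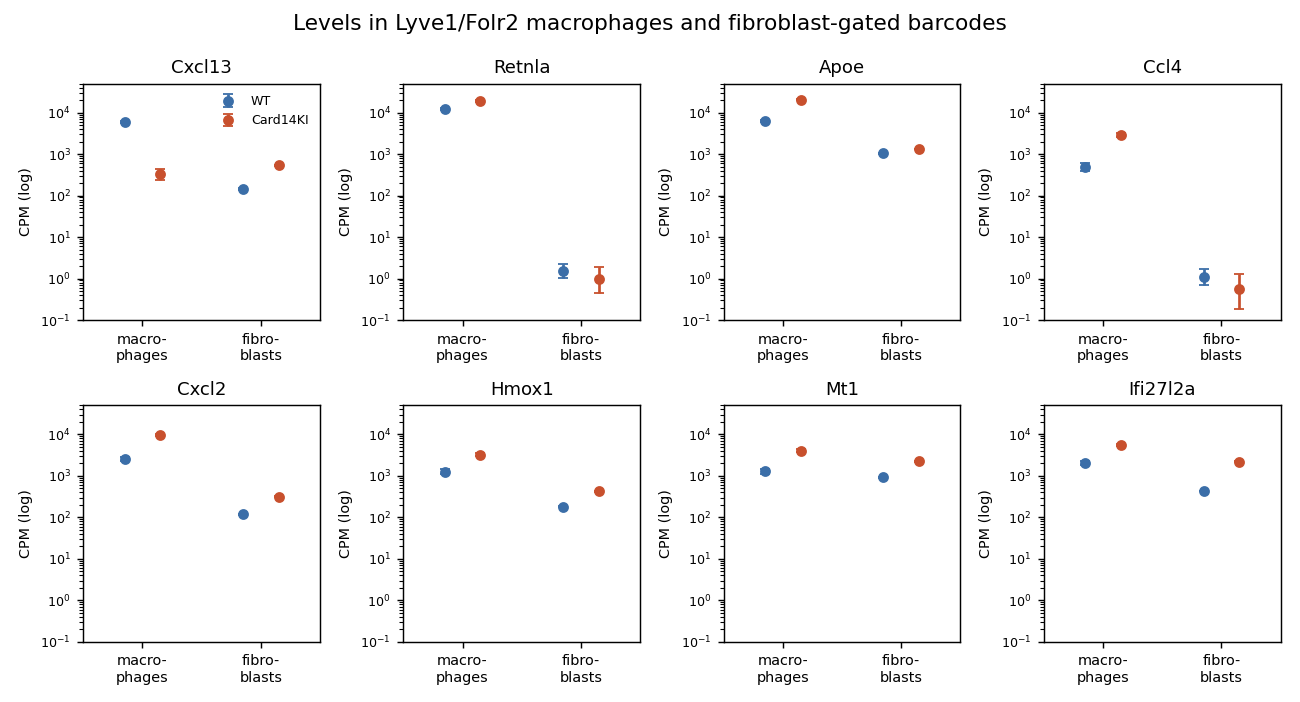
CPM on a log axis of 8 genes in macrophages with a Lyve1 or Folr2 UMI and in fibroblast-gated barcodes, for WT and Card14KI; bars are 95% Poisson intervals for counting error. Cxcl13 is lower in Card14KI macrophages and higher in Card14KI fibroblasts, while Cxcl2, Hmox1, Mt1 and Ifi27l2a are higher in Card14KI in both.

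Of the CARD, BCL10, MALT1 and NF-kB list, the pathway in which Card14 acts, 1 of 21 genes was past 2-fold higher, 3 were lower and the median was -0.11, and within the class none of 12 was higher, 1 lower and the median 0.24. Without the 5 members carrying UMIs of other cell types, 1 of 19 was higher, 5 were lower and the median was -0.24. Bcl3 stood at 65.7 and 172 CPM, Malt1 at 120 and 41.8 CPM, and Nfkbia at 997 and 1326 CPM. Card14 had 0 UMIs in WT and 1 in Card14KI, too few to check the genotype. None of the 18 IL-17 and IL-36 genes reached 20 UMIs: the IL-17 receptor Il17ra had 13 and 6 UMIs, Il17rc 2 and 1, the IL-36 receptor Il1rl2 5 and 0, and its partner Il1rap 2 and 3. Differences in them were not detectable at this depth. Of lysosomal genes only Lyz1 among 27 was past 2-fold, and Lyz2, the macrophage lysozyme, stood at 6793 and 6711 CPM. Of the transcription factors 2 of 25 were lower: Spi1, which encodes PU.1, stood at 291 and 115 CPM, and Bhlhe40 at 213 and 15.7 CPM, with 3 Card14KI UMIs. Spi1 was at 285 and 108 CPM within the class. Immediate early and heat shock genes, which also respond to tissue digestion, had 2 of 28 higher (Ier2 and Ier3) and a median of 0.33. Of 7 cell cycle genes 3 were lower: Stmn1 had 54 and 4 UMIs, Ube2c 27 and 0 with 24 in 1 barcode, and Mki67 21 and 3.

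The 12 genes with the highest ratios over all members, leaving out genes with over 50% of their UMIs in 1 barcode, were Il10, Gdf15, Hbegf, Ccl4, Cd163, Cd38, Mt1, Ddx60, Cp, Cd209b, Lyz1 and Hmox1, with log2 ratios of 1.94 to 2.84. Cd38, an enzyme that consumes NAD, stood at 58.6 and 271 CPM and the RNA helicase Ddx60 at 46.9 and 219 CPM. Lyz1 was the exception within the class: 152 and 626 CPM over all members, but 19 and 2 UMIs in barcodes with a Lyve1 or Folr2 UMI. Lyz1 and Lyz2 are close copies whose reads can be split. The other 11 kept a ratio above 0 within the class, from 1.02 for Cd163 to 2.84 for Il10. The class held 147926 of the 191618 Card14KI UMIs from which these genes were picked. Their sign within it is therefore a description and no separate check.

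The 12 lowest were Thbs1, Ttn, Itgax, Cx3cr1, Bhlhe40, Cxcl13, Fgr, Basp1, Lpl, Bcl2a1d, Dcstamp and Sgk1, with log2 ratios of -5.38 to -2.50. Only Cxcl13 and Ttn had 20 or more UMIs and a ratio past 2-fold within the class. Ttn, known as a giant muscle protein, had 45 UMIs in 18 WT members, 39 of them in the class, and 0 in Card14KI. Itgax had 38 and 0 UMIs, the kinase Fgr 29 and 0, and Dcstamp, a cell fusion gene, 20 and 0. Of the other 10, Lpl had 11 of 259 WT UMIs and Bcl2a1d 7 of 33 in the class, and both stood mostly in barcodes outside it.

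**Figure D5:**
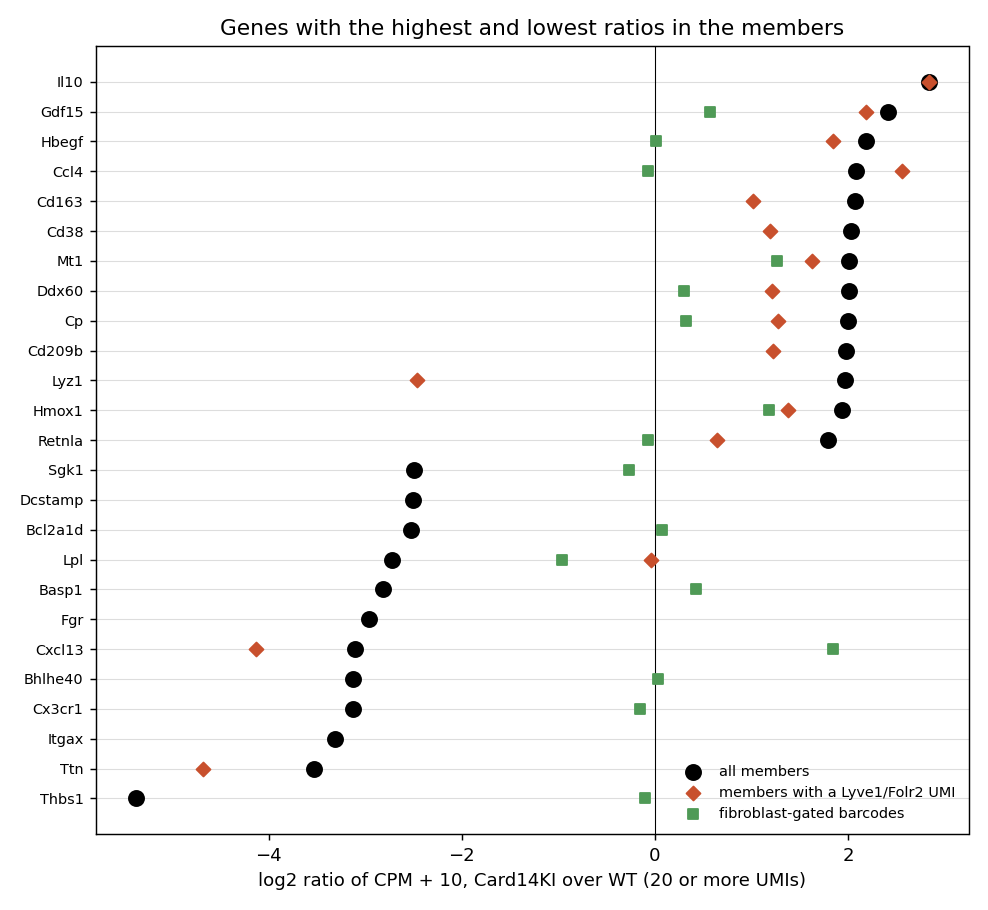
The 12 highest and 12 lowest genes and Retnla, with the log2 ratio of CPM + 10 (Card14KI over WT) on the x axis; circles are all C1q Mrc1 macrophages, diamonds those with a Lyve1 or Folr2 UMI and squares fibroblast-gated barcodes, drawn where both libraries together had 20 or more UMIs. Cxcl13 lies at -3.11 in all members, -4.14 in the class and 1.85 in fibroblasts.

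Other myeloid barcodes, with Cd74 and Tyrobp or Fcer1g but no C1q or Mrc1 (44 in WT and 21 in Card14KI), differed from the members in several of these genes. Cxcl13 was at 0 UMIs in both libraries, which allows up to 8.12 CPM in WT against 16.1 CPM in Card14KI at 3 UMIs. Retnla had 2 and 22 UMIs there. Apoe was lower in Card14KI in them, at 2504 and 745 CPM, against 5170 and 16966 CPM in members. H2-Ab1 stood at 3805 and 5909 CPM, while in members it stood at 4297 and 2458 CPM. Ccr2 was lower in Card14KI in both sets, at 506 and 171 CPM in these barcodes. Whether the differences between the 2 sets exceed what mice vary by was not tested.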

How the data were processed

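Single-cell RNA libraries of 1 WT and 1 Card14KI skin were used as the authors' deposited UMI counts per gene and barcode, not normalized, for 31053 features. Counting used Cell Ranger 6.0.2 with mm10 per the submitters' processing notes, and version 5.0.0 per the file headers, with the annotation release not given in the sources used here. Libraries capture the 3' ends of transcripts, and reads of near-identical genes can be lost or split.

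Members, lists and genes were chosen with earlier results of these data known. UMIs were summed over members of each library and scaled to CPM. Genes with 20 or more UMIs were compared by the log2 ratio with a pseudocount of 10 CPM, and 2-fold was the line for a call. Intervals are exact Poisson for levels, exact conditional binomial for ratios, Clopper-Pearson for shares and Newcombe for differences of shares, at 95%. No test was run, with 1 mouse per group. Fibroblast-gated barcodes had 10 or more Col1a1, Col1a2 and Dcn UMIs and no Tyrobp or Fcer1g. Other myeloid barcodes had 2 or more Tyrobp or Fcer1g UMIs, 10 or more of Cd74, and no C1q, Mrc1, Cd207, Cd3 or Cd79. Markers of other cell types were summed in the members.

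Genes named were the rule genes and markers, the 12 highest and 12 lowest ratios (5 or more members of the higher library with a UMI, no barcode with over 50% of the UMIs), per list up to 4 of the largest ratios and the 3 highest levels, the 20 most enriched genes, and the IL-17 and IL-36 receptors and Card14; other genes were named after their values were seen. Doublets were kept in the main values. Scrublet marked 2 and 4 barcodes by its own threshold, too few to use, and the highest scores were removed as an alternative. Promoter windows came from RefSeq, and 3 of the 4 marker genes matched. Python 3.11.15, numpy 2.4.6, scipy 1.17.1, pandas 2.3.3 and scanpy 1.11.5 were used; code was checked on simulated counts.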

Additional observations from a re-analysis of the deposited data

Results flagged for a closer look

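Cxcl13 differed in opposite directions in 2 cell types of the same skins: its log2 ratio was 1.85 in fibroblast-gated barcodes (2706 WT and 4900 Card14KI UMIs) and -3.11 in C1q Mrc1 macrophages (971 and 49 UMIs). With 1 mouse per genotype the difference between the cell types was not tested. Bcl2a1d, an anti-apoptotic gene with close copies in the genome, had a log2 ratio of 1.20 in other myeloid barcodes (48 and 58 UMIs) and -2.52 in the macrophages (33 and 1 UMIs), likewise not tested.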

How the results depend on the processing

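Direction held for Retnla and Cxcl13 under every alternative run. Retnla, at a log2 ratio of 1.79, moved to 1.65 with C1q of at least 10 UMIs, 1.64 with Mrc1 of at least 2, 1.64 under median-ratio scaling, 1.47 as a mean over cells, 1.29 when thinned, 2.03 without the top barcode of each library, 1.20 without the 20 WT and 10 Card14KI members holding 3 or more T cell, B cell or endothelial UMIs or over 1% keratinocyte or fibroblast UMIs, and 1.04 with the same class weights. Cxcl13, at -3.11, moved to -5.16 with C1q of at least 10, -3.96 as a mean over cells, -4.84 without the top barcode, -5.11 without those 30 members, -4.95 without only the 5 over 1% fibroblast or plasma cell UMIs and -4.02 with the same class weights. The 169 higher and 374 lower genes became 73 and 107 with a pseudocount of 50, 80 and 125 when thinned, 355 and 1113 with a minimum of 5 UMIs, and 97 and 132 with 50; without the 30 members, 223 were lower. With the same class weights, 4 named genes reversed: C1qa to -0.11, Lyve1 to -0.078, Cd74 to 0.22 and H2-Ab1 to 0.37. That alternative and the one on fibroblast or plasma cell UMIs were chosen after seeing the data. Median-ratio scaling moved the median of all genes from -0.12 to -0.24. The cause of each was not tested, except that thinning and the minimum change how many UMIs or genes enter. The share of members kept its value within the counting interval in all 5 alternatives. No paired analysis was possible because each group has 1 sample. Depth limits what a 0 shows: at a floor of 3 UMIs, a gene at 0 in the 34 Card14KI members could be at up to 15.7 CPM, and higher in smaller sets.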

Other observations

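Within the members that had a Lyve1 or Folr2 UMI, further genes stood apart by the same selection of highest and lowest ratios, applied after the values were seen. Higher in Card14KI were the inhibitory lectin Clec12a (1 UMI in WT and 21 in Card14KI, in 12 barcodes), the lipid receptor Trem2 (3 and 27 UMIs, in 1 and 13 barcodes), Phlda1 (7 and 44) and the hexokinase Hk2 (10 and 46). These barcode counts are not thinned, at median depths of 4024 UMIs in WT and 6527 in Card14KI. Over all members Trem2 stood at 101 CPM in WT against 151 CPM in Card14KI, and its WT UMIs lay mostly outside the class. Lower in Card14KI were the adhesion molecule Vcam1 (52 and 9 UMIs, 7 of the 9 in 1 barcode), the nucleoside transporter Slc29a1 (25 and 4), Plbd1 (63 and 12) and Tmem176a (246 and 59).

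C3 differed in opposite directions in 2 cell types, as Cxcl13 did: its log2 ratio was -1.78 in macrophages with a Lyve1 or Folr2 UMI and 1.22 in fibroblast-gated barcodes, a difference that was not tested.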
